A study of Arabidopsis thaliana with 6 samples.

Results

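A group of 10 Arabidopsis thaliana genes known to be induced by darkness or low sugar was followed in RNA sequencing counts of seedlings. They were taken by locus code from a table of 33341 genes, and all 10 codes were found. The genes are ASN1 (AT3G47340), SEN1 (AT4G35770), DIN10 (AT5G20250), DIN2 (AT3G60140), DRM1 (AT1G28330, DYL1 in RefSeq), BCAT2 (AT1G10070), TPS8 (AT1G70290), TPS11 (AT2G18700), bZIP1 (AT5G49450) and bZIP53 (AT3G62420). They were chosen by locus with the counts and fold changes of pp7l-1 against wild type already known, so their fold changes, and the count of them past a threshold, are given only as a description.

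Wild-type seedlings, titled Col in the labels, and seedlings of the mutant pp7l-1 were compared, with 3 libraries of each genotype. Both were aged 4 days and grown in long days under white light of 100 µmol photons per square metre and second at 22 °C. The agar medium of both genotypes held 1% sucrose, so sugar was supplied from outside in every library. The title of the series places the PP7L gene, for a serine/threonine protein phosphatase 7-like protein, in chloroplast development. The labels give neither the lesion of pp7l-1, nor the hour of harvest, nor whether replicates were separate cultures. P-values therefore measure only the spread between these libraries.

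Libraries held between 11269557 and 16744328 counts. The mutated gene PP7L had 24, 22 and 21 counts in the wild type and 280, 247 and 315 in the libraries labelled pp7l-1, so its reads do not show a loss of its transcript and the genotype rests on the labels. Plastid genes took 67.9 to 72.5% of the wild-type counts and 55.1 to 63.2% of the others, and levels are therefore given as CPM (counts per 1e+06 after TMM scaling, edgeR's trimmed-mean method), relative to the bulk of genes. In pp7l-1 replicate 1, genes annotated as ribosomal RNA took 7.56% of the counts, against at most 0.0151% in the other 5 libraries. Green tissue markers were abundant in both genotypes, with RBCS1A, for a small subunit of Rubisco, at 3471 to 4744 CPM in the wild type and 4280 to 5441 CPM in pp7l-1.

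Plant cells that run short of sugar shift from growth to the breakdown of their own reserves. The kinase SnRK1, a relative of the yeast kinase SNF1, is active under such conditions, and bZIP transcription factors of the groups C and S1 pair with each other and act downstream of it. Trehalose 6-phosphate, whose level follows that of sucrose, inhibits SnRK1. Among the best known targets are the dark-inducible DIN genes, enzymes that store nitrogen in asparagine, and enzymes that burn amino acids in place of sugar.

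Nearly all of these genes were lower in pp7l-1. Of the 10, 9 had enough counts to be tested, and in each of these 9 the 3 pp7l-1 libraries lay below the 3 wild-type libraries, as did 19.5% of all 18115 tested genes. As a description, 8 of the 9, all but bZIP53, were lower and past the threshold used for all genes (an adjusted p of 0.05 in edgeR's quasi-likelihood test), where 11.3% of all tested genes were called lower and 10.6% higher. With 1 library left out the count was 7 to 9, and TPS8 was past the threshold in 1 of those 6 settings and in 6 of all 14 alternatives. Nothing is read from these counts, since the genes were chosen with this contrast known. The median log2 fold change of the 9 was -1.52, and that of all tested genes was -0.01. In whole seedlings, fewer cells of a type and less RNA per cell cannot be told apart.

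Markers of roots and of the time of day were measured beside these genes. Of 13 tested root markers 9 fell (69.2%) and 2 rose (15.4%), where 11.3% and 10.6% of all tested genes did. Of the 9, COBL9 was past the threshold in 1 of the 6 settings with 1 library left out, and its adjusted p was 0.144 with DESeq2. Of the 2 that rose, SCR was past the threshold in 5 of those 6 settings. The summed level of the 14 listed markers was 104 to 110 CPM in the wild type and 28.1 to 40.1 CPM in pp7l-1. None of the 14 was at 0 in all libraries. On the log2 scale the aquaporin genes PIP2;4 and TIP2;3 fell by 3.83 ± 0.28 and 3.25 ± 0.27 and CASP2, of the Casparian strip, by 2.06 ± 0.29, while SHR, a regulator of root patterning, rose by 1.77 ± 0.37. The part of these marker values in the results for the sugar starvation genes was not tested. Of 5 green tissue markers 2 rose (40%), PSAD1 by 0.95 ± 0.24 and RCA by 1.00 ± 0.28 on the log2 scale, and 0 fell. Both calls were lost when replicate 1 of either genotype was left out, with adjusted p from 0.0547 to 0.0824, and that of RCA also when wild-type replicate 3 was (0.0876). Of 8 tested clock genes, 1 fell (12.5%, near the 11.3% of all tested genes) and 0 rose. It was PRR7, with -0.51 ± 0.17 on the log2 scale (adjusted p = 0.0418, and 0.0830 to 0.116 with any 1 library left out). GI, which peaks toward the evening, was at 38.1 ± 4.19 and 43.2 ± 5.66 CPM, and CCA1, which peaks at dawn, at 0.988 ± 0.441 and 0.812 ± 0.482 CPM.

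**Figure D1:**
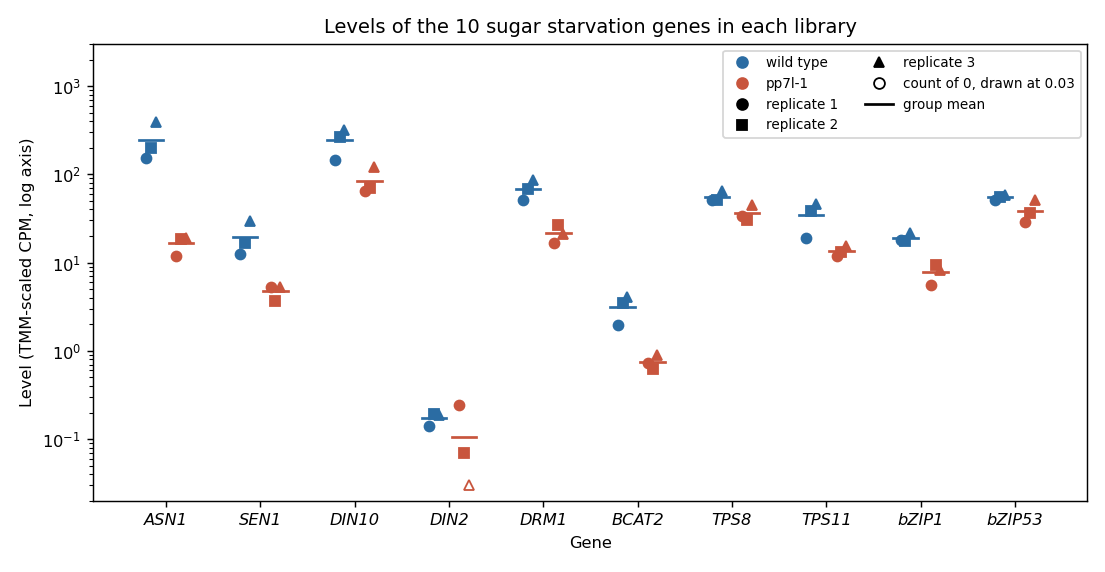
Levels of the 10 genes in each library, as TMM-scaled CPM on a log axis. Points are single libraries with 1 symbol for each replicate number, horizontal bars are group means, and an open symbol marks a count of 0. ASN1 shows the widest gap between the genotypes, and DIN2 lies near the detection limit in all 6 libraries.

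ASN1, for the asparagine synthetase that transfers nitrogen from glutamine to aspartate and is also named DIN6, had the lowest log2 fold change of the group. Its counts were 2162, 3102 and 4221 in wild-type replicates 1, 2 and 3, and 145, 269 and 343 in pp7l-1 replicates 1, 2 and 3. In CPM they were 153, 199.6 and 392 against 11.9, 18.7 and 19.1. Every pp7l-1 library was thus far below every wild-type library, and the wild-type libraries differed among themselves by 2.56-fold. The log2 fold change was -3.90 ± 0.34 (SE, n = 3 per genotype), or 14.9-fold lower, which placed ASN1 at rank 33 from the bottom among the tested genes. With 1 library left out at a time the value ran from -4.16 to -3.39, the smaller change being the one without wild-type replicate 3.

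ASN1 lies on chromosome 3 from 17437840 to 17441431 on the minus strand of TAIR10.1. An annotated gene on the opposite strand, AT3G47341, overlaps 0.4% of its exon bases and had a count of 0 in all 6 libraries. The 300 bases before the annotated start of ASN1 also overlap AT3G47341. They are shown because they hold a G-box (CACGTG), the kind of element that bZIP factors bind. The window of TPS11 is set beside that of ASN1, since both hold the sugar-related TATCCA element. Matches are in capitals, each window is read 5′ to 3′ on the gene's own strand, and sequence and coordinates are those of RefSeq's TAIR10.1, which carries a name close to but not the same as the TAIR10 build named by the submitters. The windows are chr3:17441432-17441731 (minus strand) for ASN1 and chr2:8108598-8108897 (plus strand) for TPS11.
ASN1: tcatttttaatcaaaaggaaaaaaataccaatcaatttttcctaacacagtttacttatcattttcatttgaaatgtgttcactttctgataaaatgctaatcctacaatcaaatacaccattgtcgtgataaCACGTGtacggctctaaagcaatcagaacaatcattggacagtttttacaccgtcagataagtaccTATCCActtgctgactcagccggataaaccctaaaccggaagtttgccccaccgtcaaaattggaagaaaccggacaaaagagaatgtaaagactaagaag
TPS11: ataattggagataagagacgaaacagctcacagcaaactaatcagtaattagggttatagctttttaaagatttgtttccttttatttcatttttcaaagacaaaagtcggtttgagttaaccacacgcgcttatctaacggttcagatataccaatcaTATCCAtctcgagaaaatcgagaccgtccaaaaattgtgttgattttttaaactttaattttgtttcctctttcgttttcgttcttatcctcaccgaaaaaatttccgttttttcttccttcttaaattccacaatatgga

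The G-box of ASN1 begins 167 bases and ends 162 bases before the annotated start. Searched on both strands, a G-box was found in 1 of the 9 windows of these genes reported here and in 7.09% of the 27443 windows of counted protein-coding genes. TATCCA, or TGGATA on the other strand, was found in 2 of these 9 and in 16.2% of all windows. ACTCAT, or ATGAGT, an element of the proline dehydrogenase promoter that S1 bZIPs bind, was found in 1 of these 9, the window of DRM1, and in 14.8% of all windows. None of these 3 letter strings was in the windows of SEN1, DIN10, DIN2, BCAT2, TPS8 and bZIP53, which says only that the letters are absent from these 300 bases. The 3 motifs share no bases with each other in the windows shown.

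SEN1 and DIN10 are further dark-inducible genes. SEN1, also DIN1 (chromosome 4, 16944878 to 16946266, plus strand), encodes a protein of the rhodanese family whose transcript marks senescing and darkened leaves. Its level was 12.5, 16.6 and 29.7 CPM in wild-type replicates 1, 2 and 3, and 5.32, 3.69 and 5.23 CPM in pp7l-1 replicates 1, 2 and 3. The groups were well separated, and the log2 fold change was -2.03 ± 0.28. DIN10, of the raffinose synthase family (chromosome 5, 6833564 to 6836862, plus strand), was at 147, 267 and 319 CPM in the wild type and at 64.7, 69.6 and 120.4 CPM in pp7l-1. Here pp7l-1 replicate 3 came close to wild-type replicate 1, and the log2 fold change was -1.52 ± 0.30.

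DIN2, for the beta-glucosidase BGLU30 (chromosome 3, 22216540 to 22220824, plus strand), was hardly read. It had 2, 3 and 2 counts in the wild type and 3, 1 and 0 counts in pp7l-1, too few to be tested, and the groups overlapped. A difference in DIN2 was not detectable at this depth.

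DRM1, for a dormancy-associated protein whose transcript is abundant in resting buds (chromosome 1, 9933786 to 9935440, minus strand), was at 51.4, 67.9 and 85.4 CPM in the wild type and at 16.8, 26.8 and 21.2 CPM in pp7l-1. The groups were well apart, with a log2 fold change of -1.66 ± 0.23. BCAT2, for a mitochondrial transaminase that starts the breakdown of leucine, isoleucine and valine (chromosome 1, 3288087 to 3290471, plus strand), was a rare transcript at 1.98, 3.47 and 4.08 CPM in the wild type. In pp7l-1 it was at 0.737, 0.626 and 0.890 CPM, from 9, 9 and 16 counts, and the log2 fold change was -2.04 ± 0.35. Of its exon bases 9.19% are shared with AT1G10090 on the opposite strand, so part of its reads is uncertain.

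TPS8 and TPS11 are class II trehalose phosphate synthase proteins, which carry both a synthase and a phosphatase domain and are held to be regulatory. TPS11 (chromosome 2, 8108898 to 8112010, plus strand) was at 19.2, 38.5 and 45.6 CPM in the wild type and at 12.0, 13.2 and 15.5 CPM in pp7l-1. Wild-type replicate 1 stood nearer to the mutant libraries than to the other wild-type libraries, and the log2 fold change was -1.34 ± 0.26. TPS8 (chromosome 1, 26470795 to 26474833, minus strand) was at 51.7, 51.0 and 64.4 CPM against 34.2, 30.4 and 45.5 CPM. The groups of TPS8 lay close together, with a log2 fold change of -0.60 ± 0.21. The change shrank to -0.14 when scaled on library size alone, and ran from -0.77 to -0.46 with 1 library left out.

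bZIP1 and bZIP53 are group S1 transcription factors that bind the promoters of ASN1 and of proline dehydrogenase. bZIP1 (chromosome 5, 20051829 to 20052735, plus strand) was at 18.0, 17.8 and 21.4 CPM in the wild type and at 5.57, 9.46 and 8.23 CPM in pp7l-1, a log2 fold change of -1.29 ± 0.21. The wild-type libraries of bZIP1 differed by no more than 1.21-fold. bZIP53 (chromosome 3, 23091586 to 23092850, minus strand) was at 51.8, 55.7 and 58.7 CPM against 28.5, 36.2 and 50.8 CPM. The groups of bZIP53 nearly touched, and its log2 fold change was -0.52 ± 0.22 (-0.07 when scaled on library size alone, and -0.76 without pp7l-1 replicate 3).

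With library size as the only scaling, the all-gene median of the log2 fold changes was 0.41. The values of these 9 genes moved up by about as much, and each was still below 0, from -3.41 for ASN1 to -0.07 for bZIP53.

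Per exon length, the order of the levels differed between the genotypes. In the wild type ASN1 was highest with 90.3 ± 46.1 CPM per kb of exon (SD, n = 3), followed by DIN10 with 78.3 ± 28.3, and these overlapped within 1 SD. bZIP53 (43.8 ± 2.75) and DRM1 (43.6 ± 10.9) came next and also overlapped, and were followed by bZIP1 (21.0 ± 2.28), TPS8 (16.6 ± 2.25), SEN1 (15.1 ± 6.92) and TPS11 (11.7 ± 4.64), each overlapping its neighbour. BCAT2 (1.81 ± 0.617) and DIN2 (0.0742 ± 0.0119) were apart from the rest.

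In pp7l-1 the highest levels per length were those of bZIP53 (30.4 ± 8.95 CPM per kb) and DIN10 (27.2 ± 9.89), while ASN1 was at rank 6 of 10 with 6.03 ± 1.48. DRM1, TPS8, bZIP1, ASN1, TPS11 and SEN1 formed a chain from 13.8 ± 3.20 down to 3.66 ± 0.708 CPM per kb in which each overlapped the next. BCAT2 and DIN2 were again the lowest, with 0.429 ± 0.0756 and 0.0450 ± 0.0542.

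**Figure D2:**
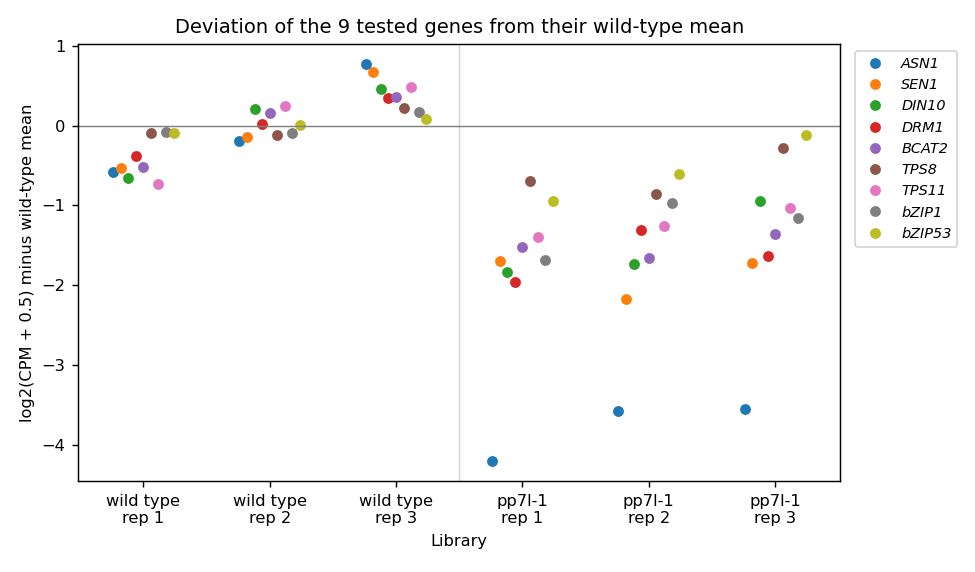
Deviation of the 9 tested genes from their own wild-type mean in each library, as the difference in log2(CPM + 0.5). Each color is 1 gene. Wild-type replicate 3 lies above 0 for all 9 genes, and in all 3 pp7l-1 libraries the 9 genes lie below 0.

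The 9 genes also varied together inside the wild type. Wild-type replicate 3 held the highest wild-type value of all 9, as it did for 34.4% of all tested genes. For 7 of the 9 wild-type replicate 1 was also the lowest, an order that 17.3% of all tested genes showed. Scaled on library size alone, wild-type replicate 3 was highest for 4 of the 9 and for 12.6% of all tested genes, so this pattern depends in part on the scaling. The ratio of the highest to the lowest wild-type library was 2.56 for ASN1, 2.38 for TPS11, 2.37 for SEN1, 2.18 for DIN10 and 2.06 for BCAT2, and 1.13 to 1.26 for bZIP53, bZIP1 and TPS8.

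Once the genotype mean was taken from each library, the correlation with ASN1 over the 6 libraries was highest for DRM1 (Pearson's r = 0.892) and TPS11 (0.812) and lowest for TPS8 (0.555) and bZIP53 (0.562). Among the r values of all tested genes, DRM1 and TPS11 lay at percentiles 97.7 and 94.6, and TPS8 and bZIP53 at 82.3 and 82.6. These r values describe 6 points that share depth and scaling. Among 2443 genes with a symbol and at least 10 CPM, the genes most like ASN1 by this measure were ALN, EXGT-A3, ACR3, TPS10 and SRF7, with r from 0.969 to 0.995. Without removal of the genotype mean they were XTH30, NodGS, ENODL17, BGLU16 and BT2, with r from 0.991 to 0.997. In that measure the gap of ASN1 between the genotypes weighs most, so its r says little of likeness within a genotype. The log2 fold changes were 0.33 for ALN, -0.97 for EXGT-A3, -0.39 for ACR3, -0.58 for TPS10 and -0.21 for SRF7. They were -1.32 for XTH30, -0.39 for NodGS, -0.70 for ENODL17, -0.86 for BGLU16 and -2.42 for BT2. BT2, for a BTB and TAZ domain protein, went from a mean of 330 to 61.5 CPM.

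**Figure D3:**
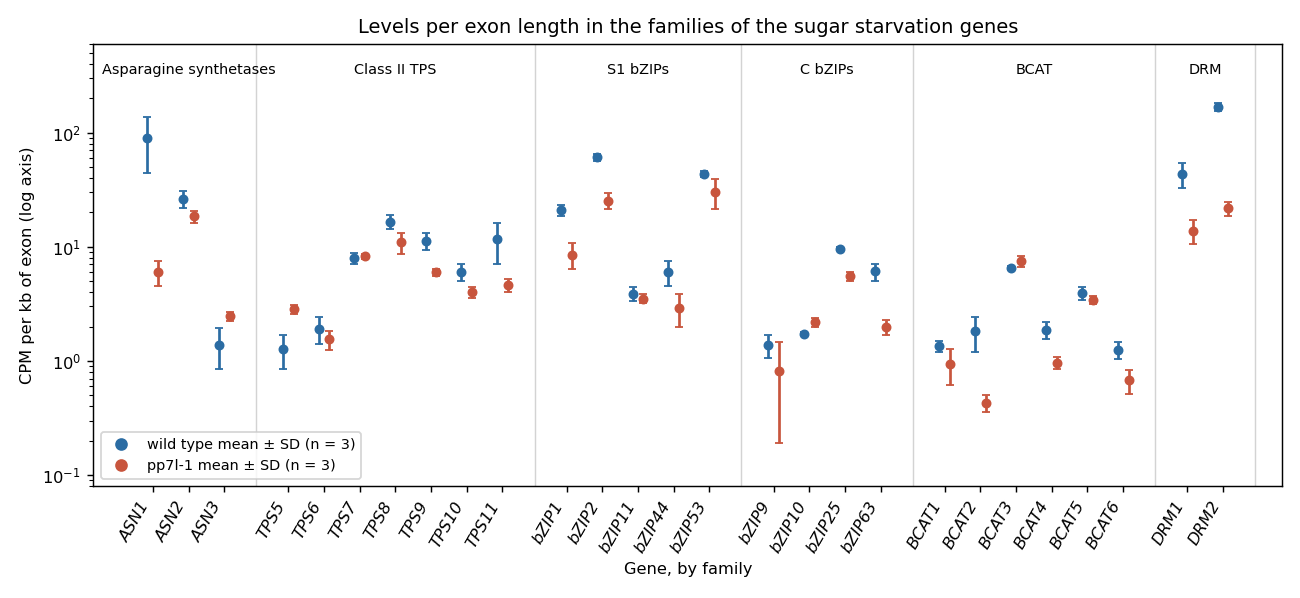
Levels per kb of exon (log axis) in the families of the 10 genes, as mean ± SD of 3 libraries for each genotype. TPS means trehalose phosphate synthase, BCAT branched-chain transaminase and DRM dormancy-associated protein. The mean of ASN1 lies above that of ASN2 in the wild type and below it in pp7l-1, and ASN3 and TPS5 were higher in pp7l-1.

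Relatives of these genes did not all follow them. Of the other asparagine synthetases, ASN2 (AT5G65010) had 58.8 ± 9.89 CPM in the wild type and 41.1 ± 5.18 CPM in pp7l-1 and did not pass (adjusted p = 0.0732). ASN3 (AT5G10240) rose from 2.99 ± 1.17 to 5.28 ± 0.487 CPM (adjusted p = 0.0432), which DESeq2 (adjusted p = 0.0735) did not call. Without wild-type replicate 2 or 3, or pp7l-1 replicate 1, 2 or 3, the adjusted p of ASN3 lay between 0.0664 and 0.135. Per length, ASN1 was above ASN2 in the wild type, with 90.3 ± 46.1 against 26.4 ± 4.44 CPM per kb, and below it in pp7l-1, with 6.03 ± 1.48 against 18.4 ± 2.33. The asparaginase ASPGB1 (AT3G16150), which releases ammonium from asparagine, fell from 1.25 ± 0.342 to 0.435 ± 0.266 CPM (adjusted p = 0.0294, but 0.118 without pp7l-1 replicate 1 and 0.0746 without pp7l-1 replicate 3, and too rare to be tested without wild-type replicate 1 or 2).

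Among 7 further bZIP genes of the groups C and S1, 4 fell (57.1%, where 11.3% of all tested genes did) and 3 did not pass. bZIP63 (AT5G28770), a group C factor that SnRK1 phosphorylates, fell from 8.78 ± 1.48 to 2.89 ± 0.439 CPM (log2 -1.58 ± 0.22, adjusted p = 0.000133). bZIP2 (AT2G18160) fell from 74.9 ± 5.45 to 31.3 ± 4.83 CPM, bZIP44 (AT1G75390) from 7.85 ± 1.95 to 3.84 ± 1.21 CPM (adjusted p = 0.0536 without wild-type replicate 3), and bZIP25 (AT3G54620) from 16.4 ± 0.467 to 9.37 ± 0.898 CPM. bZIP11, an S1 factor whose translation is repressed by sucrose, was at 5.30 ± 0.748 and 4.82 ± 0.438 CPM. Over the 7 the median log2 fold change was -0.80. Scaled on library size alone, 2 of the 7 fell and 1 rose, where 759 of all 18115 tested genes fell and 4493 rose.

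In trehalose metabolism 4 of 13 tested genes fell (30.8%) and 1 rose (7.69%), where 11.3% and 10.6% of all tested genes did. The other 8 did not pass, and 7 more genes were too rare to be tested. The class II gene TPS9 (AT1G23870) fell from 33.6 ± 5.55 to 17.8 ± 1.20 CPM, and TPS5 (AT4G17770) of the same class rose from 4.28 ± 1.40 to 9.65 ± 0.937 CPM (adjusted p = 0.0019). The phosphatases TPPH (AT4G39770) and TPPG (AT4G22590), which turn trehalose 6-phosphate into trehalose, fell by 1.54 ± 0.39 and 1.00 ± 0.22 on the log2 scale. TPS1, the main active synthase, was at 8.35 ± 0.976 and 6.91 ± 1.55 CPM, and TPS7 at 29.3 ± 3.39 and 30.4 ± 1.64 CPM. Other counted genes cover 9.89% of the exon bases of TPS1. The fourth to fall was TPS10 (AT1G60140), from 26.4 ± 4.38 to 17.6 ± 1.91 CPM (adjusted p = 0.0379, but 0.0567 to 0.183 without wild-type replicate 2 or 3 or pp7l-1 replicate 1 or 2). With library size as the only scaling, 0 of these 4 were called, while TPS5 still rose (log2 1.56).

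Among the subunits of SnRK1 and the kinases that activate it, 2 of 9 fell (22.2%, where 11.3% of all tested genes did) and 1 rose (11.1%, where 10.6% did). KINBETA1 (AT5G21170), a beta subunit, fell from 32.7 ± 4.46 to 10.13 ± 1.70 CPM (log2 -1.69 ± 0.20, adjusted p = 3.4e-05). The gamma subunit KING1 (AT3G48530) fell from 21.6 ± 0.444 to 13.4 ± 0.760 CPM (adjusted p = 0.0550 without pp7l-1 replicate 1), and KINBETA2 (AT4G16360) rose by 0.66 ± 0.22 on the log2 scale, to 9.61 ± 1.59 CPM (adjusted p = 0.0388, but 0.0688 to 0.166 without wild-type replicate 1 or 3 or pp7l-1 replicate 1 or 2). The catalytic subunits KIN10 and KIN11 did not pass, with 14.0 ± 1.76 and 13.1 ± 0.852 CPM for KIN10 and 8.72 ± 1.55 and 6.15 ± 1.12 CPM for KIN11. A transcript level says nothing of the activity of the kinase.

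Of 24 tested genes for the breakdown of branched-chain amino acids, lysine, proline and glutamate, 10 fell (41.7%, where 11.3% of all tested genes did). Of these 24, 0 rose and 14 did not pass, and their median log2 fold change was -0.58. The E1 alpha subunit of the branched-chain keto acid dehydrogenase at AT1G21400 fell from 10.8 ± 1.79 to 1.90 ± 0.619 CPM (log2 -2.46 ± 0.24, adjusted p = 7.34e-06). MCCA (AT1G03090), for a subunit of methylcrotonyl-CoA carboxylase in leucine breakdown, fell from 36.7 ± 10.8 to 7.02 ± 1.58 CPM, although other counted genes cover 12.4% of its exons. Proline dehydrogenase (ERD5, AT3G30775) went from 19.7, 52.1 and 66.5 CPM in wild-type replicates 1, 2 and 3 to 8.85, 7.65 and 13.1 CPM in pp7l-1. Its log2 fold change was -2.21 ± 0.34 (adjusted p = 0.000365). DIN4 (AT3G13450), the E1 beta subunit, fell from 28.4 ± 9.23 to 8.99 ± 2.46 CPM. Of the other transaminases, BCAT1, BCAT3, BCAT5 and BCAT6 did not pass, and BCAT4 (AT3G19710), which serves methionine chain elongation, fell by 0.97 ± 0.29 on the log2 scale (adjusted p = 0.0259, but 0.0507 to 0.101 without wild-type replicate 1 or 3 or pp7l-1 replicate 1 or 3). Other counted genes cover 21.2% of the exon bases of BCAT4 and 19.6% of those of BCAT5.

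Of 12 other tested genes known to be repressed by sugar, 8 fell (66.7%) and 1 rose (8.33%), where 11.3% and 10.6% of all tested genes did. The other 3 did not pass. With 1 library left out, 6 to 8 fell. Of the 8, BXL1 (AT5G49360) was past the threshold in 2 of the 6 settings with 1 library left out. The libraries of EXL1 (AT1G35140) overlapped between the genotypes. The EXL1 call was lost with DESeq2 (adjusted p = 0.0864) and without wild-type replicate 3 (0.0709). The median log2 fold change of the 12 was -1.81, the lowest median of the 9 pathway lists. SEN5 (AT3G15450) was at 254, 510.5 and 536 CPM in wild-type replicates 1, 2 and 3 and at 24.0, 48.5 and 41.0 CPM in pp7l-1. Its log2 fold change was -3.52 ± 0.33 (adjusted p = 4.08e-06). DRM2 (AT2G33830), the closest relative of DRM1 here, fell from 188 ± 13.8 to 24.3 ± 3.41 CPM (log2 -2.95 ± 0.21, adjusted p = 3.38e-07). STP1 (AT1G11260), a monosaccharide transporter of the plasma membrane, fell from 112 ± 44.6 to 22.3 ± 2.24 CPM, and the zinc finger gene AT5G22920 from 179 ± 43.2 to 39.1 ± 8.31 CPM. Another counted gene covers 12.6% of the exon bases of STP1. The 1 that rose was EXL4 (AT5G09440), from 14.3 ± 1.61 to 21.0 ± 1.65 CPM (adjusted p = 0.0384, and between 0.0584 and 0.146 without any wild-type replicate or without pp7l-1 replicate 1 or 2).

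**Figure D4:**
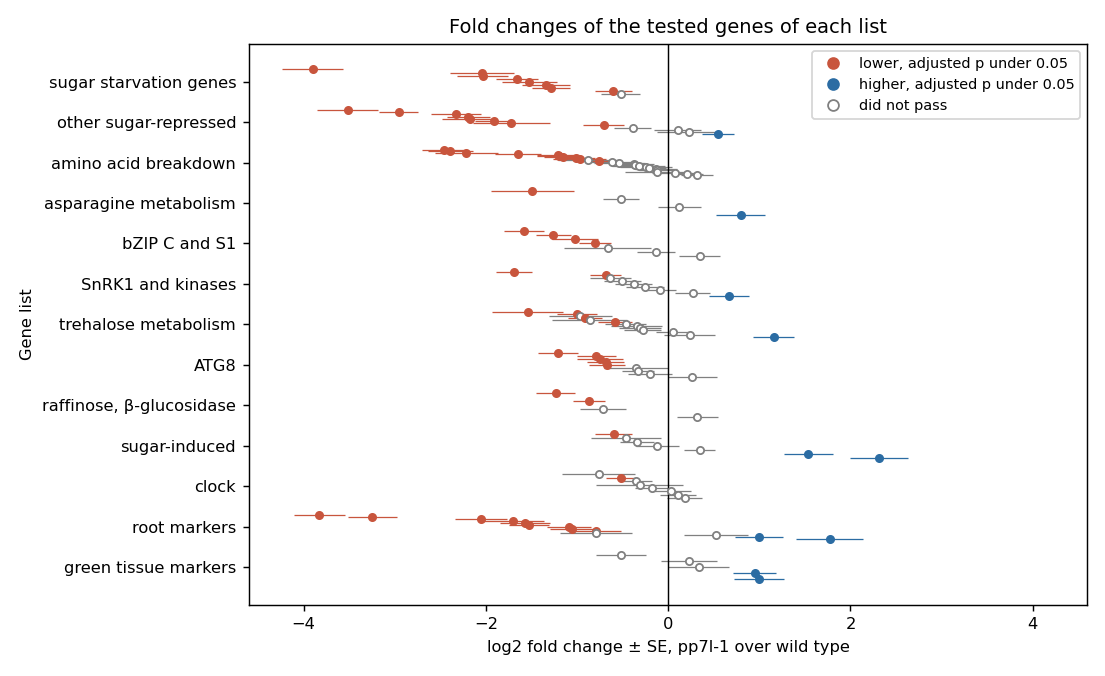
Log2 fold changes ± SE of the tested genes of each list, pp7l-1 over wild type, with filled points for an adjusted p under 0.05 in edgeR's quasi-likelihood test. Sugar-repressed and amino acid breakdown genes lie mostly left of 0, GPT2 and APL3 among the sugar-induced genes lie to the right, and most clock genes lie closer to 0, on either side.

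Of 7 tested genes listed as induced by sugar, 2 rose (28.6%, where 10.6% of all tested genes did) and 4 did not pass. The remaining 1 fell (14.3%, near the 11.3% of all tested genes). GPT2 (AT1G61800), a transporter of glucose 6-phosphate into plastids, rose from 0.957 ± 0.292 to 4.75 ± 1.30 CPM (log2 2.31 ± 0.32, adjusted p = 0.000147). APL3 (AT4G39210), a large subunit of the enzyme that makes ADP-glucose for starch, rose from 1.67 ± 0.342 to 4.82 ± 0.968 CPM (adjusted p = 0.00092). The cytosolic invertase gene CINV1 (AT1G35580) fell from 25.7 ± 4.72 to 17.0 ± 2.71 CPM (adjusted p = 0.0435). That call was lost without wild-type replicate 2 or 3 or pp7l-1 replicate 1 or 3 (adjusted p from 0.1005 to 0.154). It was also lost with DESeq2 (0.064), upper quartile scaling (0.0541), nuclear genes only (0.0509) and library size as the only scaling (0.592).

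Autophagy delivers cell contents to the vacuole during starvation, and ATG8 proteins coat its membranes. Of 9 ATG8 genes 5 fell (55.6%, where 11.3% of all tested genes did) and 4 did not pass. ATG8E (AT2G45170) fell from 37.1 ± 9.16 to 16.0 ± 3.56 CPM (adjusted p = 0.00131). ATG8A, ATG8I, ATG8C and ATG8D fell by 0.67 to 0.79 on the log2 scale, although another counted gene covers 18.4% of the exon bases of ATG8I. Without wild-type replicate 1 or 3, or pp7l-1 replicate 1, ATG8E alone was called. Without pp7l-1 replicate 3 there were 2 calls, and 4 without pp7l-1 replicate 2. Among 4 tested relatives of DIN10 and DIN2, 2 fell (50%, where 11.3% of all tested genes did). Another 6 relatives were too rare to be tested. Scaled on library size alone, 1 of the 4 fell and 1 rose, where 759 of all 18115 tested genes fell and 4493 rose. BGLU16 was then no longer called (adjusted p = 0.181). The raffinose synthase family gene AT3G57520 fell from 57.4 ± 12.4 to 24.4 ± 3.90 CPM and the beta-glucosidase BGLU16 (AT3G60130) from 15.9 ± 1.14 to 8.71 ± 0.907 CPM.

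Over all 9 of these lists, 37 of 89 tested genes fell (41.6%), where 11.3% of all tested genes did, and 6 rose (6.74%), where 10.6% did. The median log2 fold change of the 89 was -0.53. Scaled on library size alone, 19 of the 89 fell and 11 rose, where 759 of all 18115 tested genes fell and 4493 rose. With 1 library left out between 26 and 35 fell. The number that rose was 3 when wild-type replicate 3, pp7l-1 replicate 1 or pp7l-1 replicate 2 was left out. The lists were written with earlier results of these data known.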

How the data were processed

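RNA from 3 wild-type and 3 pp7l-1 samples of 4-day-old seedlings was sequenced after Illumina TruSeq preparation, per the labels' protocols. The submitters' processing notes name the build TAIR10, the aligner TopHat2 2.1.1, featureCounts, FastQC and Trimmomatic. The annotation counted and the handling of strand, overlaps and multiple matches are not stated in those notes or labels. The authors deposited raw read counts per gene, 1 table per library, of which 33056 of 33341 codes matched RefSeq's TAIR10.1 annotation. Exon lengths, coordinates and the 300-base upstream windows came from TAIR10.1; the window of bZIP1 is not reported here.

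Genes were filtered with filterByExpr (minimum count 10), scaled by TMM and fitted with edgeR 4.0.16 in R 4.3.3 (quasi-likelihood test, genotype as the only term, Benjamini-Hochberg adjustment over 18115 genes, threshold 0.05). Scripts were tested on simulated data. Errors are SDs over libraries, or SEs of the fit. Alternatives were DESeq2 1.42.0, other scalings, other filters, each library left out and a replicate block.

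The 10 genes and all lists were chosen with earlier results of these data known. By rule, a list's named genes were those past the threshold, up to the 4 with the largest change, or its 2 most abundant where none passed. Close relatives of the 10 genes and the 5 genes most like ASN1 were named too. Other genes named were chosen after their values were seen.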

Additional observations from a re-analysis of the deposited data

How the results depend on the processing

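Scaled on library size alone, 759 of all genes were called lower and 4493 higher (85.5% higher, against 48.6% with TMM), and over the 9 pathway lists 19 lower and 11 higher. By list, the calls were then 0 lower in asparagine metabolism, 2 lower and 1 higher among bZIP genes, 1 lower and 2 higher for SnRK1, 0 lower in trehalose metabolism, 1 higher in amino acid breakdown, 0 lower among sugar-induced genes, 1 lower for ATG8, and 1 lower and 1 higher among relatives of DIN10 and DIN2. DESeq2 called 0 lower and 0 higher in asparagine metabolism, 0 higher for SnRK1, 0 lower among sugar-induced genes and 2 lower for ATG8. Sugar-induced genes also had 0 lower with upper quartile scaling and with nuclear genes only, and asparagine metabolism 0 lower with at least 1 CPM in 3 libraries. The cause was not tested.

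With 1 library left out, 1384 to 2219 of all genes were lower and 1274 to 2146 higher, and 7 to 9 of the sugar starvation genes were lower and 0 higher. Over the pathway lists 26 to 35 were lower and 3 to 5 higher. The range was 0 to 1 in both directions for asparagine metabolism, 1 to 3 lower and 0 to 1 higher for SnRK1, 0 to 1 higher among other sugar-repressed genes, 0 to 1 lower among sugar-induced genes and 1 to 4 lower for ATG8.

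The labels do not say that replicate numbers pair the libraries, and deviations of same-numbered libraries correlated at 0.110, -0.0258 and 0.0644, so the numbers were not taken as pairs. With a replicate block 2166 genes were lower and 1987 higher, 8 of the sugar starvation genes were lower, and the pathway lists had 37 lower and 6 higher. Depth limits DIN2 most, with 7 counts in all wild-type libraries and 4 in all pp7l-1 libraries.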
